A study of Mus musculus with 12 samples.

Results

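A set of 9 genes of goblet cell mucus were followed through sorted crypt cells of the mouse small intestine. The members, chosen by gene symbol alone, were Muc2, Tff3, Clca1, Fcgbp, Agr2, Agr3, Zg16, Retnlb and Spink4, which are 9 of the 55414 genes in the count table. The study sorted crypt cells of naive C57BL/6J mice into a Paneth cell fraction (PC) and a fraction of the other crypt cells (nonPC), from mice with an intact glucocorticoid receptor gene (WT, titled GRWT) and from GRvillinKO mice that lack this receptor in the intestinal epithelium (KO, titled GRKO). RNA of 3 replicates in each of the 4 groups was sequenced, which gave 12 libraries named WT_PC, KO_PC, WT_nonPC and KO_nonPC with the numbers 1 to 3. All mice were untreated, of the same strain and 8 to 12 weeks old. Genotypes were taken from the sample titles, because the genotype field lists every PC library as WT and every nonPC library as GRKO. The Paneth cell gate took CD24+ cKIT+ events of medium or high side scatter and left out cells with the lineage markers TER119, CD31 or CD45, whereas for nonPC cells the sources used here give no gate. Any goblet cell caught in the PC gate would carry these transcripts into that fraction, and in bulk RNA fewer cells of a type and less RNA per cell cannot be told apart.

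The labels were checked before the members were read. Nr3c1, the gene of the glucocorticoid receptor, lay at 33.0 to 41.1 CPM (counts per 1000000 counts of a library) in WT_PC and at 4.73 to 12.1 CPM in KO_PC. In nonPC libraries Nr3c1 lay at 135 to 160 CPM in WT and at 19.6 to 36.2 CPM in KO. The 6 Paneth cell markers Lyz1, Defa24, Defa30, Mmp7, Ang4 and Itln1 summed to 345554 to 427473 CPM in the PC libraries and to 435 to 1674 CPM in the nonPC libraries. Total counts ran from 11126297 to 15910292 per library. Since Paneth cell granule transcripts take so large a share of the PC libraries, levels below are given as scaled CPM, that is CPM after trimmed mean of M-values (TMM) scaling, unless plain CPM is stated. Xist was carried by both WT libraries of number 2 (127 CPM in PC and 257 in nonPC) and by no other library above 0.520 CPM. The 5 sex markers, Xist and the Y-linked Ddx3y, Kdm5d, Uty and Eif2s3y, summed to 128 and 257 CPM there. In the other libraries they summed to 53.9 to 134 CPM, nearly all Y-linked. WT number 2 thus reads as female and the rest as male, so sex was not balanced between genotypes. Its part in the members' values was not tested. Markers of endothelium and stroma (Pecam1, Col1a1, Col3a1) summed to at most 0.853 CPM in any library. The 4 stem cell markers (Lgr5, Olfm4, Ascl2 and Smoc2) summed to 5012 to 6502 CPM in WT_PC and 3990 to 5546 CPM in WT_nonPC. Of these, 4 were called higher in PC in WT and 2 in KO (edgeR, false discovery rate of 5%), beside 24.0% and 17.9% of all genes. The part of other crypt cells in the PC libraries was not tested.

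Goblet cells are secretory cells that fill their apical granules with mucus and release it to cover the epithelium. The mucus gel is built from a large glycosylated mucin that is folded and linked by disulfide bonds in the endoplasmic reticulum, and that is secreted together with smaller proteins that shape the gel or act on microbes. Paneth cells arise from the same Atoh1-dependent secretory lineage, and share with goblet cells much of the machinery for making granules.

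In the annotation used here (GRCm39), Muc2 lies at chr7:141276583-141308430 on the plus strand and Fcgbp at chr7:27770661-27820287 on the plus strand. Zg16 lies at chr7:126649302-126686500 on the minus strand, Clca1 at chr3:144709578-144738537 on the minus strand and Tff3 at chr17:31344280-31348620 on the minus strand. Agr3 (chr12:35975619-35999735) and Agr2 (chr12:36042904-36054086) are neighbours on the plus strand of the same chromosome, with 43169 bases between them. Retnlb lies at chr16:48637219-48639255 and Spink4 at chr4:40920044-40931396, both on the plus strand. All 9 genes are protein coding, and 0% of their merged exons overlapped an exon of another gene on either strand. Merged exon length ran from 516 bases for Tff3 to 13916 bases for Muc2, and Fcgbp at 10497 bases was the next longest. Of all 100-base windows within exons, 100% occurred once in the genome for 7 of the members, 98.4% for Fcgbp and 83.5% for Muc2, so that part of the Muc2 exons could not receive uniquely mapped reads of that length.

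Promoters of 4 of the 9 members were in the RefSeq promoter table (GRCm38.p6), which spans 250 bases before to 50 bases after a transcription start. These 4 are shown, and Agr2 and Agr3 among them are adjacent paralogs. The windows are chr7:141690090-141690389 for Muc2, chr7:28070986-28071285 for Fcgbp, chr12:35992675-35992974 for Agr2 and chr12:35925371-35925670 for Agr3, all on the plus strand. Capitals mark the E-box CAGCTG and the ETS core GGAT, or its reverse complement ATCC.
Muc2: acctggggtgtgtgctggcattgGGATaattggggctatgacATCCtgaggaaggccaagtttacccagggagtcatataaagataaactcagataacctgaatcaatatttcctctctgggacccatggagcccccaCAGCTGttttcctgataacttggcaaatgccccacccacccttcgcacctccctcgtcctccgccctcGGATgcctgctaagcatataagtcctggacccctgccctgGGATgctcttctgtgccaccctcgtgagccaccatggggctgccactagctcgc
Fcgbp: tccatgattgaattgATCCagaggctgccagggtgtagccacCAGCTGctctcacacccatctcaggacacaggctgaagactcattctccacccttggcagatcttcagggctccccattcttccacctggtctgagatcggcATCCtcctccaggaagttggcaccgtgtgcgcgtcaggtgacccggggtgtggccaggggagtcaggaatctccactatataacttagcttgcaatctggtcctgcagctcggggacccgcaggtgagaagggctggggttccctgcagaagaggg
Agr2: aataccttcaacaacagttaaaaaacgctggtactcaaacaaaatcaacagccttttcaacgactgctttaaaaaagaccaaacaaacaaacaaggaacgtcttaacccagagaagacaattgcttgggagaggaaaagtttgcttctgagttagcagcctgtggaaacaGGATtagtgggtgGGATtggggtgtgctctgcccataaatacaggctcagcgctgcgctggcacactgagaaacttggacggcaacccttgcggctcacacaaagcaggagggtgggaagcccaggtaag
Agr3: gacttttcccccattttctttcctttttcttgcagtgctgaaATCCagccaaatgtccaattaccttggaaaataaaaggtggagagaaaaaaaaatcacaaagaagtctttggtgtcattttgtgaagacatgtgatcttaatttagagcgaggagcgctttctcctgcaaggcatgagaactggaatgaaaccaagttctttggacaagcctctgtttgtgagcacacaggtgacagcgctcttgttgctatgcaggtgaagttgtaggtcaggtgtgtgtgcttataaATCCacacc
The E-box CAGCTG, a form of the motif bound by basic helix-loop-helix factors such as ATOH1, was found once in the Muc2 window and once in the Fcgbp window, and in 16.3% of all 32851 promoters in the table. It began 112 bases before the start in Muc2 and 208 bases before it in Fcgbp. The ETS core GGAT, which factors such as SPDEF bind, was matched 4 times in Muc2 and 2 times in each of the other windows, and 79.6% of all promoters held it. No window held the forkhead motif TGTTTAC (3.65% of all promoters) or a full glucocorticoid response element, searched as AGAACA, then any 3 bases, then TGTTCT (0.00913% of all promoters). Both strands were searched, the motifs do not overlap each other, and the matches are letters in a window and not measured binding sites.

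Levels were first compared between members within a group, per base of merged exon and scaled to the same total in each library as for CPM. In WT_nonPC the order by mean was Tff3 (10041), Zg16 (9495), Clca1 (1626), Spink4 (1573), Agr2 (1434), Fcgbp (1420), Muc2 (302), Agr3 (18.3) and Retnlb (1.73). Tff3 and Zg16 overlapped between libraries, as did each neighbour from Clca1 to Fcgbp, whereas Muc2, Agr3 and Retnlb were each apart from the next. In WT_PC the order was Spink4 (8933), Tff3 (1733), Agr2 (871), Muc2 (94.6), Zg16 (70.3), Fcgbp (32.4), Clca1 (22.7), Retnlb (22.2) and Agr3 (8.27), where the first 3 genes were apart from their lower neighbours and every neighbour from Muc2 down overlapped. In KO_PC the first 3 genes kept that order (9477, 1227 and 934) and Agr3 was again last at 2.57. In KO_nonPC the first 7 genes stood in the WT_nonPC order, and Retnlb (43.8) and Agr3 (20.8) overlapped at the end. With the length of the canonical transcript in place of the merged exons, a scale chosen after the gene lengths were seen, Zg16 stood above Tff3 in both nonPC groups, Agr2 above Tff3 in KO_PC, and Zg16 above Muc2 in WT_PC and above Muc2, Retnlb and Fcgbp in KO_PC. Clca1 moved below Agr2, Spink4 and Fcgbp in WT_nonPC and below Agr2 and Spink4 in KO_nonPC, and Agr2 above Spink4 in both.

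As a sum, the 9 genes made up 0.866% to 1.17% of counts in WT_PC, 0.891% to 1.22% in KO_PC, 0.867% to 1.81% in WT_nonPC and 0.890% to 1.28% in KO_nonPC, so the groups overlapped in the sum. What differed was the make-up. Spink4 took 58.2% to 65.6% of the members' counts in WT_PC and 53.2% to 70.9% in KO_PC, against 2.05% to 2.88% in WT_nonPC and 3.37% to 5.76% in KO_nonPC. Fcgbp took 27.8% to 35.9% in WT_nonPC and 26.9% to 37.3% in KO_nonPC, and at most 7.94% in any PC library. Zg16 took 25.7% to 34.0% in WT_nonPC, 13.1% to 23.6% in KO_nonPC and at most 1.79% in any PC library.

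**Figure D1:**
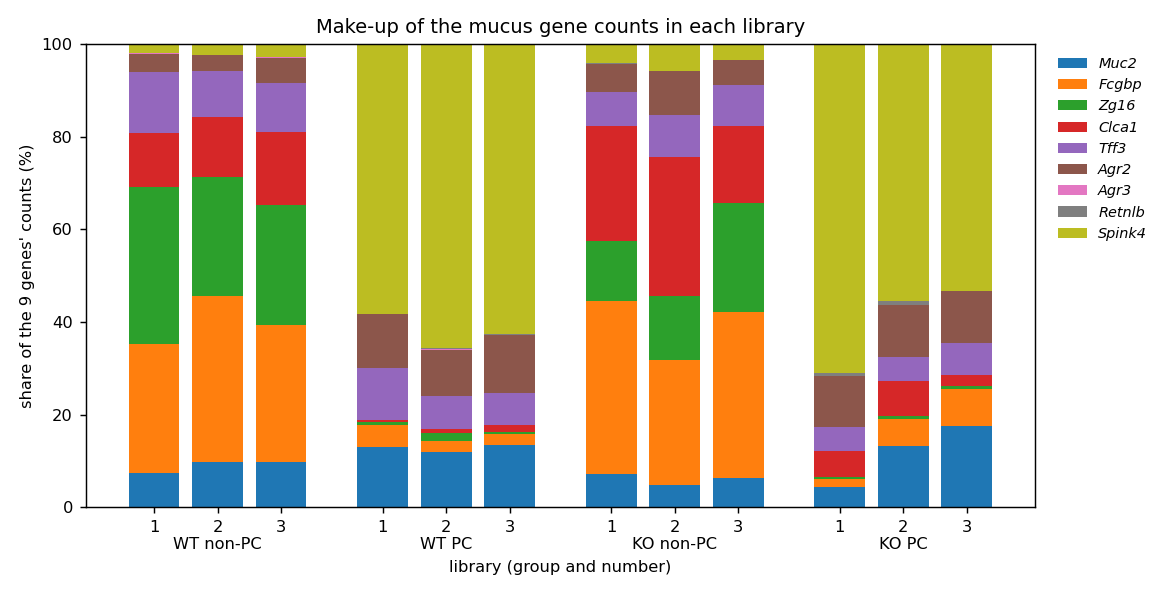
Share of each gene in the summed counts of the 9 members (percent, bars add to 100) for every library, grouped by genotype and fraction with the library number below. Spink4 fills 53.2% to 70.9% of each PC bar, while Fcgbp, Zg16 and Clca1 together fill most of each nonPC bar.

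Between the fractions of WT mice, 4 members rose in PC (Spink4, Agr2, Agr3 and Retnlb), 3 fell (Zg16, Clca1 and Fcgbp) and 2 did not pass the test (Muc2 and Tff3), with edgeR at a false discovery rate of 5%. Over all 13057 genes tested, 24.0% were called higher and 26.7% lower. The median log2 fold change was 0.77 over the 9 members and 0.01 over all genes. Between the fractions of KO mice, 3 members rose in PC (Spink4, Muc2 and Agr2) and 2 fell (Zg16 and Fcgbp), beside 17.9% of all genes called higher and 21.2% lower. The medians were 0.38 and −0.08. With calls this frequent over all genes, the members' counts are not far from the background, and the members' values and directions are what follows.

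**Figure D2:**
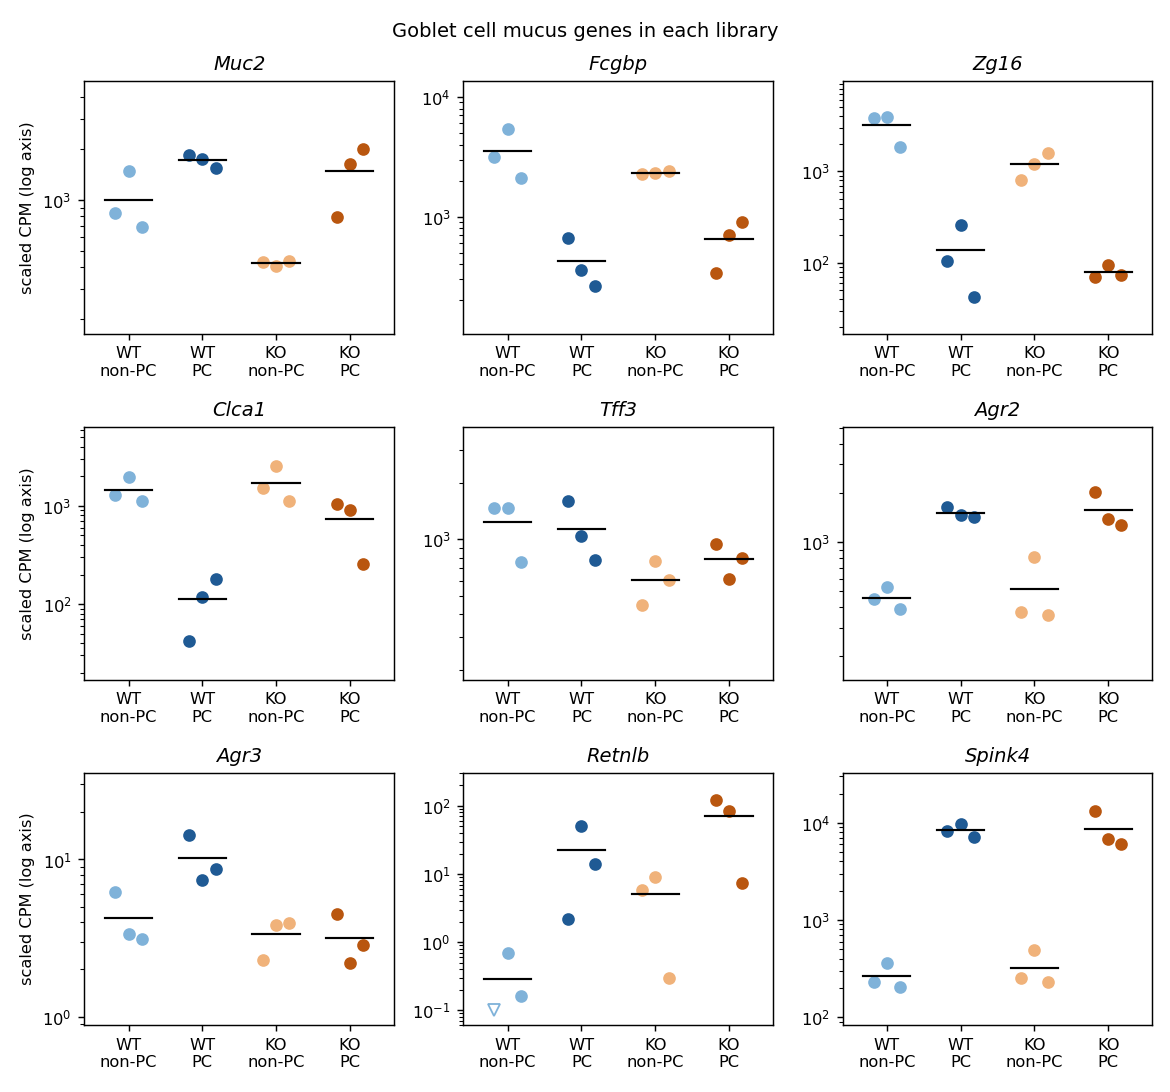
Scaled CPM of each member (log axis, 1 panel per gene) in the 3 libraries of each group, drawn from left to right as number 1 to 3, with the group mean as a line. An open triangle marks the WT_nonPC library in which Retnlb was 0. On this scale Muc2, Fcgbp, Zg16, Clca1, Agr2 and Spink4 separate PC from nonPC in both genotypes, Agr3 and Retnlb in WT alone, and Tff3 in neither. On plain CPM Muc2 overlaps in both genotypes, Agr2 in KO and Agr3 in WT, while Tff3 and Agr3 separate in KO. The share of all genes that separate in this way was not counted.

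Muc2 encodes the gel-forming mucin of intestinal mucus. In WT it measured 1836, 1741 and 1539 scaled CPM in PC and 838, 1471 and 690 in nonPC. The PC libraries were all higher on this scale, by 0.77 log2 units (SE 0.32, 95% interval 0.08 to 1.46), which did not pass the threshold (adjusted p = 0.0601, edgeR). The WT libraries of the same number deviated together, and with that number as a block the log2 fold change of Muc2 was 0.85 at an adjusted p of 0.0257 (edgeR). Without WT_nonPC 2, the highest of its group, it was 1.26 (adjusted p = 0.00283, edgeR). Muc2 also passed without KO_PC 1 (adjusted p = 0.0123, edgeR) or KO_PC 3 (adjusted p = 0.0444, edgeR). Those KO libraries enter through the shared filter, scaling, spread and adjustment. On plain CPM the groups overlapped (1141 to 1515 in PC, 840 to 1759 in nonPC), and with libraries scaled by their totals the Muc2 difference was 0.079 (adjusted p = 0.858, edgeR). In KO, Muc2 measured 794, 1625 and 1996 scaled CPM in PC and 433, 407 and 434 in nonPC. Every KO_PC library was above every KO_nonPC library on this scale, whereas on plain CPM KO_PC 1 (525) lay below the KO_nonPC libraries (610 to 641). The log2 fold change was 1.79 (SE 0.32, adjusted p = 9.39e-04, edgeR), or 0.86 when libraries were scaled by their totals.

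Fcgbp encodes a large protein with von Willebrand factor domains that is a main partner of Muc2 in the mucus. It measured 670, 359 and 263 scaled CPM in WT_PC and 3122, 5427 and 2106 in WT_nonPC. The groups were far apart, and Fcgbp fell by 3.04 on the log2 scale in PC (SE 0.49, adjusted p = 4.45e-04, edgeR), an 8.25-fold difference. In KO it measured 338, 705 and 901 in PC and 2279, 2303 and 2416 in nonPC, again without overlap, and fell by 1.85 (SE 0.46, adjusted p = 0.00994, edgeR). Fcgbp lost this call in KO when both KO libraries of number 1 were left out (−1.47, adjusted p = 0.0719, edgeR) or both of number 2 (−1.92, adjusted p = 0.0569, edgeR), choices made after seeing the data.

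Zg16 encodes a lectin-like mucus protein that binds the wall of Gram-positive bacteria. It measured 106, 263 and 42.0 scaled CPM in WT_PC and 3820, 3887 and 1859 in WT_nonPC. It was 23.3-fold lower in PC (log2 fold change −4.54, SE 0.67, adjusted p = 4.29e-04, edgeR), and without WT_PC 2, the highest PC library, the log2 fold change was −5.43. In KO, Zg16 measured 69.4, 94.1 and 74.4 in PC and 798, 1197 and 1598 in nonPC and fell by 3.92 (SE 0.66, adjusted p = 0.0014, edgeR). The fractions did not overlap in either genotype.

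Clca1 encodes a secreted metalloprotease abundant in mucus. It measured 42.4, 119 and 179 scaled CPM in WT_PC and 1303, 1955 and 1116 in WT_nonPC, and fell by 3.69 on the log2 scale in PC (SE 0.70, adjusted p = 0.00205, edgeR). In KO it measured 1056, 918 and 257 in PC and 1515, 2564 and 1125 in nonPC. KO_PC 3 stood well below the other KO_PC libraries, the fractions still did not overlap, and the difference of −1.22 (SE 0.64, 95% interval −2.67 to 0.23) did not pass the threshold (adjusted p = 0.167, edgeR).

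Tff3 encodes trefoil factor 3, a small peptide of epithelial repair that is secreted with mucus. It measured 1599, 1046 and 780 scaled CPM in WT_PC and 1469, 1479 and 754 in WT_nonPC, and 949, 615 and 793 in KO_PC and 445, 767 and 605 in KO_nonPC. On this scale the fractions overlapped in both genotypes. On plain CPM they overlapped in WT, but in KO the PC libraries (499 to 627) all lay below the nonPC libraries (649 to 1149). The log2 differences were −0.11 (95% interval −0.81 to 0.59) in WT and 0.38 (−0.32 to 1.07) in KO, and with libraries scaled by their totals they were −0.79 (adjusted p = 0.0508, edgeR) and −0.62 (adjusted p = 0.0978).

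Agr2 and Agr3 encode disulfide isomerases of the endoplasmic reticulum, and Agr2 is needed to make Muc2. Agr2 measured 1636, 1461 and 1437 scaled CPM in WT_PC and 449, 530 and 391 in WT_nonPC. It rose by 1.73 on the log2 scale (SE 0.29, adjusted p = 2.62e-04, edgeR). In KO it measured 2039, 1395 and 1276 in PC and 374, 808 and 360 in nonPC, and rose by 1.61 (SE 0.29, adjusted p = 7.01e-04, edgeR). KO_nonPC 2 was the high library of its group, and without it the KO value was 2.21. With libraries scaled by their totals the Agr2 values were 1.04 in WT and 0.61 in KO. On plain CPM the KO fractions overlapped for Agr2 (1002 to 1347 in PC, 532 to 1211 in nonPC).

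Agr3 was the low partner of the pair, with 25 to 150 counts in any library. It measured 14.3, 7.43 and 8.76 scaled CPM in WT_PC and 6.18, 3.37 and 3.10 in WT_nonPC. The groups did not overlap on this scale, although they did on plain CPM. Agr3 rose by 1.28 on the log2 scale (SE 0.34, adjusted p = 0.00539, edgeR), a call that was lost when libraries were scaled by their totals (0.61, adjusted p = 0.131, edgeR). In KO it measured 4.47, 2.21 and 2.84 in PC and 2.28, 3.82 and 3.97 in nonPC, which overlapped (log2 fold change −0.11, 95% interval −0.88 to 0.67). With libraries scaled by their totals Agr3 was called lower in KO_PC (−1.10, adjusted p = 0.0126, edgeR), the opposite direction to the WT difference.

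Spink4 encodes a small protein of the Kazal type serine protease inhibitor family. It measured 8238, 9603 and 7143 scaled CPM in WT_PC and 230, 362 and 205 in WT_nonPC. In KO it measured 13122, 6799 and 6039 in PC and 252, 492 and 228 in nonPC. The Spink4 difference was the largest of the 9 members in KO and second to that of Retnlb in WT, with a log2 fold change of 4.97 in WT (SE 0.41, adjusted p = 4.82e-07, edgeR) and 4.74 in KO (SE 0.41, adjusted p = 1.60e-06, edgeR). By mean CPM Spink4 ranked 13th of all genes in WT_PC and 453rd in WT_nonPC.

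Retnlb encodes resistin-like molecule beta, a secreted protein that acts on bacteria and is known from worm infection. It measured 2.19, 50.5 and 14.2 scaled CPM in WT_PC and 0, 0.698 and 0.160 in WT_nonPC, the latter from 0, 12 and 3 counts. The fitted log2 fold change was 6.20 with a wide interval of 1.63 to 10.77 (adjusted p = 0.0300, edgeR). Leaving out WT_PC 2 ended this call (4.73, adjusted p = 0.108, edgeR), as did leaving out WT_nonPC 1 (5.74, adjusted p = 0.0810), WT_nonPC 2 (7.92, adjusted p = 0.0625) or WT_nonPC 3 (5.94, adjusted p = 0.0854). In KO, Retnlb measured 123, 84.0 and 7.29 in PC and 5.83, 8.94 and 0.302 in nonPC. KO_PC 3 lay inside the nonPC range, and the difference of 3.82 (95% interval 0.69 to 6.96) did not pass the threshold (adjusted p = 0.0562, edgeR). It passed without KO_PC 3 (4.36, adjusted p = 0.0322, edgeR). With all KO libraries kept, it also passed without WT_PC 1 (adjusted p = 0.0414, edgeR) or WT_PC 2 (adjusted p = 0.0475, edgeR).

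Retnlb was read beside markers of tuft cells, the chemosensory cells that drive the response to worms. The 5 markers Dclk1, Trpm5, Il25, Pou2f3 and Avil summed to 131 to 331 CPM in WT_PC, 318 to 875 in KO_PC, 3.80 to 10.5 in WT_nonPC and 92.8 to 370 in KO_nonPC. All 4 tuft markers tested were called higher in PC than in nonPC in each genotype, and higher in KO_nonPC than in WT_nonPC, and Il25 was 0 in every WT_nonPC library. Within KO, number 3 was the lowest library of both fractions for Retnlb and for the tuft sum. Within WT, number 1 was the lowest library of both fractions for both. The full order of libraries was the same for Retnlb and the tuft sum in both nonPC groups. In WT_nonPC that Retnlb order rested on 0, 12 and 3 counts. The orders differed in both PC groups. In WT_PC number 2 was highest for Retnlb and number 3 for the tuft sum, and in KO_PC number 1 was highest for Retnlb and number 2 for the tuft sum. The pan-leukocyte marker Ptprc was likewise lowest in number 3 of the KO libraries, at 1.64 CPM in PC and 0.446 CPM in nonPC, against 12.5 and 23.3 CPM in the other KO_PC libraries. The summed immune markers (Ptprc, Cd3e, Cd74 and Cd79a) ran from 137 to 684 CPM in PC and from 475 to 2660 CPM in nonPC, nearly all of it from Cd74, the invariant chain of MHC class II. Cd74 was highest in WT_nonPC (2499 to 2659 CPM), where Ptprc was at 0.195 to 0.487 CPM, and Cd3e and Cd79a were at most 0.696 CPM in any library. The part of these cells in the Retnlb values was not tested.

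**Figure D3:**
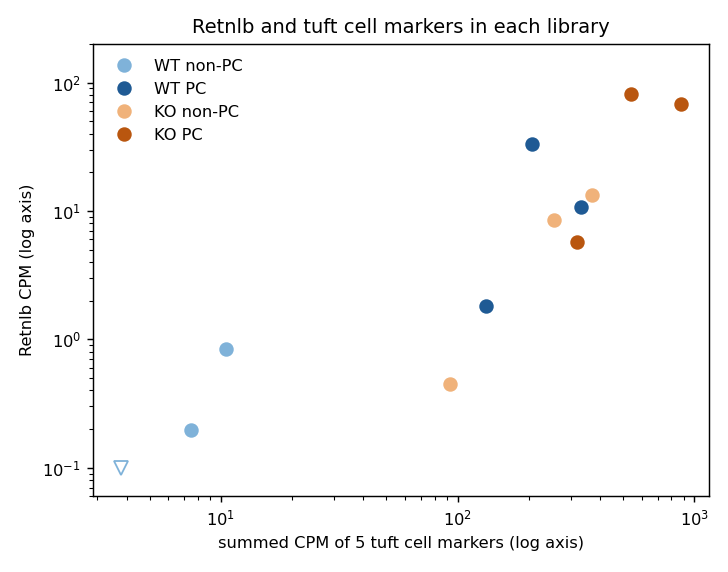
Plain CPM of Retnlb against the summed CPM of 5 tuft cell markers in each of the 12 libraries (both axes log), coloured by group; the open triangle is the library with 0 Retnlb counts. The WT_nonPC libraries are lowest on the tuft axis (3.80 to 10.5 CPM), KO_nonPC 3 lies among them on the Retnlb axis, and KO_PC 1 and 2 are the highest on the Retnlb axis.

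Counts relative to Muc2 within a library do not depend on how libraries are scaled. The Fcgbp to Muc2 ratio was 0.365, 0.206 and 0.171 in WT_PC and 3.73, 3.69 and 3.05 in WT_nonPC. In KO it was 0.426, 0.434 and 0.451 in PC and 5.27, 5.66 and 5.57 in nonPC. The ratio thus did not overlap between fractions, nor between genotypes within a fraction, and was above the WT value in every KO library. The Spink4 to Muc2 ratio was 4.49 to 5.51 in WT_PC and 0.246 to 0.298 in WT_nonPC, and 3.03 to 16.5 in KO_PC and 0.526 to 1.21 in KO_nonPC. The Clca1 to Muc2 ratio was 0.0231 to 0.116 in WT_PC, 0.129 to 1.33 in KO_PC, 1.33 to 1.62 in WT_nonPC and 2.59 to 6.30 in KO_nonPC. The Zg16 to Muc2 ratio ran from 0.0273 to 0.151 over the PC libraries and from 1.84 to 4.56 over the nonPC libraries, with the genotypes overlapping in both.

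**Figure D4:**
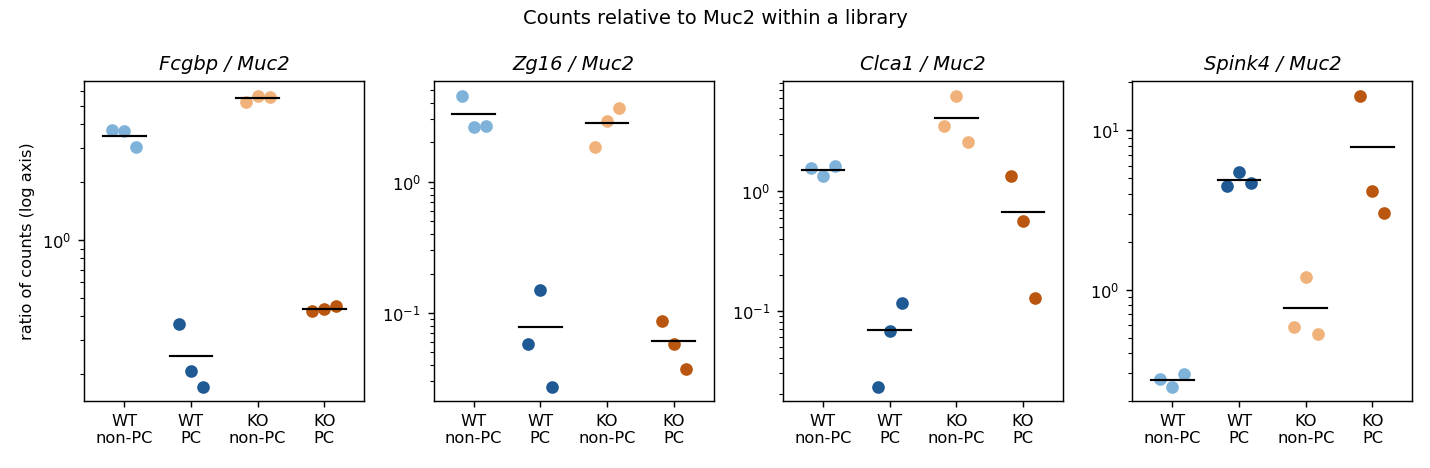
Ratio of the counts of Fcgbp, Zg16, Clca1 and Spink4 to those of Muc2 in the same library (log axis), 3 libraries per group with the mean as a line. The Fcgbp ratio is at most 0.451 in the PC libraries and at least 3.05 in the nonPC libraries, and the 3 KO libraries sit above the 3 WT libraries in each fraction.

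Between genotypes in the Paneth cell fraction, Agr3 was the 1 member of the 9 past the threshold with edgeR, and DESeq2 called Agr3 (−1.71, adjusted p = 0.00125) and Clca1. Agr3 fell from 14.3, 7.43 and 8.76 scaled CPM in WT_PC to 4.47, 2.21 and 2.84 in KO_PC, with no overlap, or by 1.71 on the log2 scale (SE 0.36, 95% interval −2.48 to −0.93, adjusted p = 0.0443, edgeR). Over all genes 1.7% were called higher and 1.52% lower in this comparison. The Agr3 call sat at the threshold and was lost without WT_PC 1 (−1.37, adjusted p = 0.146, edgeR), KO_PC 2 (−1.49, adjusted p = 0.224) or KO_PC 3 (−1.64, adjusted p = 0.0819), when libraries were scaled by their totals (−1.74, adjusted p = 0.0590), and when only the PC groups were fitted (−1.76, adjusted p = 0.0947). The nonPC libraries enter this Agr3 test through the shared filter, scaling, spread and adjustment. The call was also lost without KO_nonPC 1, 2 or 3 (adjusted p = 0.0606, 0.0636 and 0.0512, edgeR) or WT_nonPC 2 or 3 (adjusted p = 0.0680 and 0.0565, edgeR). The neighbouring paralog Agr2 differed by 0.05 (95% interval −0.55 to 0.66).

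Clca1 had the widest gap between genotypes in PC. The WT_PC values of 42.4, 119 and 179 scaled CPM all lay below the KO_PC values of 1056, 918 and 257, a log2 difference of 2.71 (SE 0.67, 95% interval 1.18 to 4.25) that missed the threshold with edgeR (adjusted p = 0.0576) and passed it with DESeq2 (2.71, adjusted p = 9.01e-04). Spink4 and Muc2 overlapped between the genotypes, with differences of 0.06 (−0.69 to 0.81) and −0.21 (−0.90 to 0.47). Fcgbp (0.59, −0.42 to 1.60), Tff3 (−0.54, −1.24 to 0.16), Zg16 (−0.79, −2.13 to 0.56) and Retnlb (1.70, −1.19 to 4.59) overlapped as well. KO_PC 1 stood apart from the other libraries of its group. It had the lowest scaled CPM of Muc2, Fcgbp and Zg16, and the highest of Spink4, Agr2, Tff3, Agr3, Clca1 and Retnlb. The merged exons span 13916 bases in Muc2, 10497 in Fcgbp, 1409 in Zg16 and 3777 in Clca1. For Zg16, KO_PC 1 (69.4 scaled CPM) was close to KO_PC 3 (74.4). The part of transcript length in these values was not tested. Without KO_PC 1 the Muc2 difference was 0.089 and the Spink4 difference −0.37, and neither passed the test. Marker sums also differed in PC. The 7 goblet cell markers that are not members summed to 285 to 343 CPM in WT_PC and 394 to 467 CPM in KO_PC, with 1 called higher. The 4 stem cell markers summed to 5012 to 6502 CPM and 3057 to 4359 CPM, with 0 called. The tuft sums (131 to 331 and 318 to 875 CPM) and the Paneth cell sums overlapped. The part of these shifts in the members' values was not tested.

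Between genotypes in the nonPC fraction, Muc2 and Tff3 fell and the other 7 members did not pass the test, beside 17.5% of all genes called higher and 19.8% lower. The median log2 fold change was −0.32 over the members and 0.02 over all genes. Muc2 measured 433, 407 and 434 scaled CPM in KO_nonPC against 838, 1471 and 690 in WT_nonPC, with no overlap, and on plain CPM the KO libraries lay within 1.05-fold of each other. It fell by 1.24 on the log2 scale (SE 0.32, 95% interval −1.93 to −0.54, adjusted p = 0.00992, edgeR). Muc2 lost this call when libraries were scaled by their totals (−0.94, adjusted p = 0.0537, edgeR) and without both KO libraries of number 2 (−1.20, adjusted p = 0.0514, edgeR).

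Tff3 fell by 1.03 in nonPC (SE 0.32, 95% interval −1.73 to −0.32, adjusted p = 0.0264, edgeR), although KO_nonPC 2 at 767 scaled CPM overlapped WT_nonPC 3 at 754. The Tff3 call was lost without WT_nonPC 1 (−0.94, adjusted p = 0.0938, edgeR), WT_nonPC 2 (−0.92, adjusted p = 0.0923), KO_nonPC 1 (−0.90, adjusted p = 0.0928) or KO_nonPC 3 (−1.07, adjusted p = 0.0732), and when libraries were scaled by their totals (−0.73, adjusted p = 0.0890). Zg16 was lower in every KO_nonPC library on the scaled values, with a log2 difference of −1.41 (95% interval −2.76 to −0.07). It did not pass the threshold (adjusted p = 0.0928, edgeR), but did without WT_PC 2 (adjusted p = 0.0178, edgeR) or WT_PC 3 (adjusted p = 0.0219, edgeR). Those PC libraries enter through the shared filter, scaling, spread and adjustment. Fcgbp (−0.61, −1.61 to 0.40), Agr3 (−0.32, −1.04 to 0.41), Agr2 (0.17, −0.44 to 0.78), Clca1 (0.25, −1.18 to 1.68), Spink4 (0.29, −0.47 to 1.04) and Retnlb (4.07, −0.81 to 8.96) overlapped between the genotypes. The make-up of the nonPC fraction differed as well. The 7 enterocyte markers (Alpi, Fabp1, Fabp2, Apoa1, Apoa4, Sis and Vil1) summed to 26677 to 30081 CPM in WT_nonPC and to 6743 to 8257 CPM in KO_nonPC, and 3 of 7 were called lower. The 3 proliferation markers summed to 685 to 787 CPM in WT_nonPC and to 1428 to 1528 CPM in KO_nonPC, with 3 of 3 called higher, and the 4 stem cell markers to 3990 to 5546 CPM and 6294 to 8340 CPM, with 3 of 4 called higher. The part of these shifts in the members' values was not tested, and the 7 goblet cell markers that are not members (Rep15, Tpsg1, Sytl2, Capn9, Bcas1, Lrrc26 and Spdef) summed to 124 to 217 CPM in WT_nonPC and 152 to 282 CPM in KO_nonPC, with none called.

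**Figure D5:**
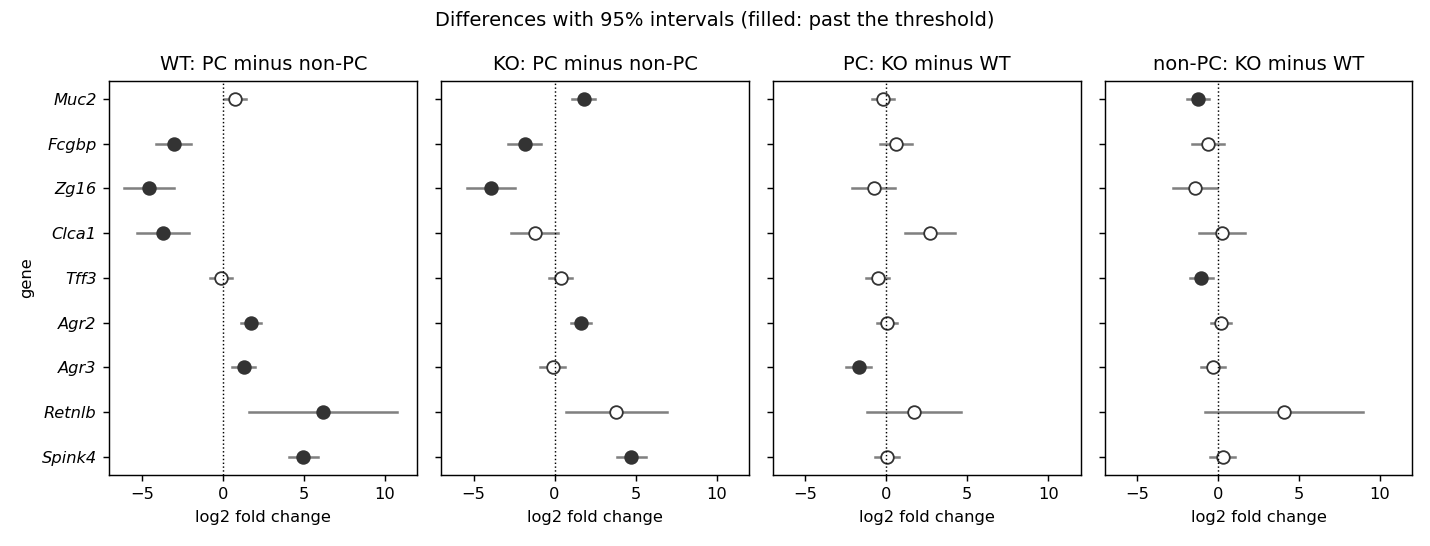
Log2 fold change of each member in the 4 comparisons with its 95% interval from edgeR; filled points passed a false discovery rate of 5%. The fraction panels hold 7 and 5 filled points and the genotype panels 1 (Agr3) and 2 (Muc2 and Tff3).

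Whether the genotype difference differed between the fractions was tested by the interaction term, where a positive value means a more positive KO against WT difference in PC than in nonPC. With edgeR 0 of 9 members passed, beside 11.5% of all genes called higher and 7.27% lower. At an unadjusted p under 0.05 there were 3 members, Agr3 (−1.39, adjusted p = 0.0639), Clca1 (2.46, adjusted p = 0.0940) and Muc2 (1.02, adjusted p = 0.131). DESeq2 called the same 3, with −1.33 for Agr3 (adjusted p = 0.0493), 2.51 for Clca1 (adjusted p = 0.0144) and 1.07 for Muc2 (adjusted p = 0.0411). With the library number within genotype as a block, where the WT numbers were treated as pairs, edgeR called 2 members. These were Agr3 (−1.39, adjusted p = 0.0176) and Retnlb (−2.38, adjusted p = 0.00245). Without the block, leaving out 1 library changed calls with edgeR. Muc2 passed without KO_PC 1 (1.32, adjusted p = 0.0165), Clca1 without KO_PC 3 (2.87, adjusted p = 0.0389), and Agr3 without KO_PC 1 (−1.70, adjusted p = 0.0370), WT_PC 2 (−1.57, adjusted p = 0.0428) or WT_nonPC 1 (−1.76, adjusted p = 0.0299). Spink4 (−0.23, 95% interval −1.29 to 0.83), Agr2 (−0.12, −0.97 to 0.74) and Tff3 (0.49, −0.50 to 1.48) had intervals on both sides of 0.

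The other genes of the mucus programme were read as lists of known factors, enzymes and relatives. Their counts stand beside the shares of all genes called higher and lower, which were 24.0% and 26.7% between the WT fractions, 17.9% and 21.2% between the KO fractions, and 1.7% and 1.52% between the genotypes in PC. Of the 9 transcription factors of goblet cells, 8 were called higher in WT_PC than in WT_nonPC (Atoh1, Spdef, Gfi1, Foxa1, Foxa2, Foxa3, Creb3l1 and Creb3l4) and Klf4, a factor of terminal goblet differentiation, was lower, with a median log2 fold change of 2.37. Creb3l4 (2.80) and Gfi1 (2.48) had the largest values. In KO 8 of 9 were again higher, with a median of 2.10, and Klf4 did not pass (0.06). Of 14 further goblet cell markers tested, 11 were higher and 1 lower in WT_PC, led by Ccl9 (4.59) and Ramp1 (4.34), and in KO 12 were higher and 0 lower. The lower marker was Capn9, a calpain (−1.14). In KO_PC against WT_PC 0 of the 9 factors were called, and Capn9 (1.22, adjusted p = 0.0484, edgeR) was the 1 called marker.

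Mucins carry dense O-linked sugar chains, and of 26 genes of mucin glycosylation and sugar supply tested, 12 were higher and 4 lower in WT_PC than in WT_nonPC, with a median of 0.43, and 16 and 3 in KO. The sialyltransferases St3gal1 (2.98) and St3gal4 (−4.08) went opposite ways in WT. In KO_PC against WT_PC only Uap1, which makes the sugar donor UDP-N-acetylglucosamine, was called (0.58, adjusted p = 0.0449, edgeR). Other mucins are bound to the membrane, and of 4 tested Muc17 (−3.70) and Muc13 (−0.92) fell and Muc3a (1.46) rose in WT_PC. Among 16 genes of mucus release and processing, 4 were higher and 9 lower in WT_PC, with the meprins Mep1b (−4.40) and Mep1a (−3.94), of which Mep1b is known to cut Muc2, at the lower end. Of 8 paralogs of the members tested, Clca4a (−6.22), Spink1 (−4.53) and Clca4b (−2.93) fell in WT_PC and Txndc12 (0.43) rose.

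In KO_nonPC against WT_nonPC, Klf4 fell by 1.49 on the log2 scale (adjusted p = 9.02e-06, edgeR), and Foxa2 (0.88), Foxa1 (0.68), Creb3l1 (0.66) and Foxa3 (0.65) rose, while 0 of the 14 further goblet markers were called in either direction, beside 17.5% of all genes called higher and 19.8% lower. Klf4 was also the 1 factor of 9 past the threshold in the interaction (1.61, adjusted p = 3.13e-04, edgeR). Of the glycosylation genes, St3gal4 (−1.72) and B3gnt6 (−1.27) fell and Galnt12 (0.50), Slc35c1 (0.46) and Nans (0.38) rose. Of the membrane mucins, Muc17 (−1.28) and Muc13 (−0.74) fell. Both meprins fell, Mep1b by 2.17 and Mep1a by 2.03 on the log2 scale. Of the paralogs Clca4a (−2.48) and Clca4b (−1.45) fell and Clca3b (0.59) rose.

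The genes with the most similar profile were found by the root mean square difference of centred log2 CPM over the 12 libraries. For Clca1 the nearest were Scin (0.57), Gsdmc4 (0.76) and Gsdmc3 (0.78), and for Zg16 they were Slc25a45, Npl and Npc1l1 (0.46 to 0.50). Agr2 was nearest to Pdia5 (0.26), another disulfide isomerase, and Spink4 to the chemokine Ccl9 (0.36). Retnlb had no close neighbour, with Fyb1, Itprid1 and Alox5ap at 1.14 to 1.22. Muc2 was nearest to Arsg (0.26), Tff3 to 1500015A07Rik (0.18), Fcgbp to Slc7a8 (0.40) and Agr3 to 2410006H16Rik (0.21) and Zfas1 (0.27). The members were mostly far from each other. The smallest difference between members was 0.59, for Tff3 and Agr3. Among 13056 other genes the best ranks were Spink4 at 143rd for Retnlb, at a difference of 1.92, and Fcgbp at 290th for Clca1. Muc2 ranked 11738th for Fcgbp. The 100 genes nearest to Agr3 had a median merged exon length of 3004 bases, against 6061 bases over all genes tested. For the other members this median ran from 3414.5 bases for Zg16 to 6414 bases for Fcgbp. The part of transcript length in these profiles was not tested.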

How the data were processed

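RNA of sorted Paneth cell (PC) and nonPC fractions of WT and KO mice was sequenced with a stranded kit, 3 libraries per group. RNA was extracted with an RNeasy Plus Micro kit per the methods and with an Aurum kit per the labels. Reads were trimmed with Trimmomatic 0.39 and aligned with STAR 2.7.10a to mm39, per the submitters' processing notes, and the deposited counts are whole raw read counts per Ensembl gene, with no normalization by the authors; STAR counts reads that map to 1 place. The methods name GENCODE v28 as annotation, whereas gene names, coordinates and lengths here come from GENCODE vM39, which named 54749 of 55414 genes. The strand setting of the counting was not given in the sources used here.

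Here counts were fitted with edgeR 4.0.16 in R 4.3.3 (quasi-likelihood, robust, TMM scaling, filterByExpr, 13057 genes, 1 mean per group over 12 libraries), with Benjamini-Hochberg adjustment over all genes tested and a false discovery rate of 5%. Intervals are 95% intervals of the fitted log2 fold change. DESeq2 1.42.0, the tool of the methods, was an alternative, as were other scalings and filters, a 1% false discovery rate, fits of only the groups compared, replicate blocks and leaving out each library. Leaving out both libraries of 1 number was added after seeing the data. The members and lists were chosen with earlier results of these data known. The rule for naming was all 9 members in every comparison, and for each list the 2 called genes of largest absolute log2 fold change, plus all where 5 or fewer were called; other list genes named were chosen after their values were seen. PC and nonPC libraries of 1 number correlated in their deviations from the group means by 0.349, 0.229 and 0.238 in WT. In KO these values were 0.0129, 0.262 and 0.465. The WT numbers were treated as pairs because each passed a limit of 0.1, which KO number 1 missed. Number 2 also passed it across genotypes (0.156 in PC and 0.166 in nonPC), where libraries cannot share a mouse. The limit thus does not show which libraries came from the same mouse. The labels do not say which replicates came from separate mice, so p-values measure only the spread between these libraries. Replicate pairs differed beyond counting noise (chi-square per degree of freedom 12.3 to 47.1). On simulated counts of 13057 genes the fit recovered 86.0% of 200 genes changed by 2 on the log2 scale for the WT fractions, 90.5% for the KO fractions, 88.5% and 89.5% for the genotypes in PC and nonPC, and 80.5% for the interaction, and of its calls 3.37%, 6.70%, 3.80%, 4.28% and 5.85% were false, in the same order. In the simulation all other genes were equal between groups and libraries were independent. These rates therefore do not cover the scaling or the pairing of the real libraries.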

Additional observations from a re-analysis of the deposited data

How the results depend on the processing

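The opposite directions of Spink4 and Agr2 (higher in PC) and of Zg16 and Fcgbp (lower in PC) held in both genotypes under every alternative run, and were past the threshold under all of those at a false discovery rate of 5% except for Fcgbp in KO without both KO libraries of number 1 or number 2. The genotype results in PC were the least stable. Leaving out each library in turn moved the number of all genes called there from 420 to between 0 and 1619, the members called between 0 and 1, and the log2 differences of Muc2 from −0.49 to 0.089, Agr2 from −0.18 to 0.19, Spink4 from −0.37 to 0.26 and Zg16 from −1.21 to 0.10. The lowest counts of all genes there, 0 and 1, came without KO_PC 2 and without WT_PC 1 or KO_nonPC 2, and the highest came without KO_PC 1. In nonPC it gave 1 to 3 members and 3637 to 5504 genes called. There Agr2 ran from −0.38 to 0.33, Spink4 from −0.21 to 0.53 and Clca1 from −0.21 to 0.48, and without KO_nonPC 2 these 3 turned negative. In the interaction it gave 0 to 2 members and 1562 to 2610 genes, Agr2 from −0.35 to 0.39 and Spink4 from −0.66 to 0.23. Tff3 between WT fractions ran from −0.44 to 0.14 and Agr3 between KO fractions from −0.42 to 0.12. None of the values that turned sign was called. The cause was not tested.

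Scaling by library totals shifted the median of all genes to −0.68 in the WT and −1.05 in the KO fraction comparison, 0.31 between genotypes in nonPC and −0.28 in the interaction. Genes called higher and lower were then 1097 and 7895, 816 and 9969 (10785 in all), 4345 and 1478, and 751 and 1836, with 0 and 2 between genotypes in PC. Tff3 between KO fractions turned to −0.62, and 0 members were called in PC, 0 in nonPC and 1 in the interaction. DESeq2 called 2 members and 1381 genes in PC, 4 members and 4998 genes in nonPC, and 3 members and 3009 genes in the interaction. A fit with no filter on low counts tested 24077 genes. It called 5 members in PC (1780 genes), 5 in nonPC (5012 genes) and 5 in the interaction (2671 genes). With 10 counts required, Agr2 in PC was −0.0052, and higher and lower calls were 225 and 370 in PC and 2697 and 2063 between KO fractions. At a false discovery rate of 1%, 0 members and 0 genes remained in PC, 1 member and 3002 genes in nonPC and 955 genes (705 higher, 250 lower) in the interaction. A fit of only the PC groups called 0 members and 0 genes.

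With the library number as a replicate block, 8 members and 6952 genes passed between WT fractions, where the numbers were treated as pairs. Muc2 was the 1 member call that changed. The block within genotype gave 2 members (Agr3 and Retnlb) and 2977 genes in the interaction, which holds those WT libraries and the KO libraries. The KO numbers, of which number 1 missed the limit of 0.1, were not treated as pairs, nor were the numbers across genotypes. There the replicate block gave 6 members and 5521 genes between KO fractions, 977 genes in PC and 4991 in nonPC.

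Leaving out both KO libraries of number 1 gave 1145 genes in PC, with Muc2 at 0.029, Agr2 at −0.24 and Spink4 at −0.43. It gave 1 member and 3937 genes in nonPC, and 2 members and 2319 genes in the interaction. Without both KO libraries of number 2 there were 0 members and 1 gene in PC, 1 member and 3566 genes in nonPC, and 963 genes in the interaction. Agr3 between KO fractions was then 0.20, Clca1, Agr2 and Spink4 in nonPC were −0.14, −0.31 and −0.14, and Agr2 and Spink4 in the interaction were 0.44 and 0.34. Without both WT libraries of number 2, PC gave 0 members and 1 gene with Zg16 at 0.10. In nonPC there were 1 member and 3610 genes, and Tff3 between WT fractions was 0.12.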
